A study of Mus musculus with 18 samples.

Results

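Hox genes encode homeodomain transcription factors and are laid out in 4 clusters, Hoxa, Hoxb, Hoxc and Hoxd. Their transcripts were followed over 18 arrays, each hybridised with RNA of whole mammary gland from virgin female mice. Every probe set with exactly 1 gene symbol made of Hoxa, Hoxb, Hoxc or Hoxd and a number was taken, which gave 48 probe sets for 33 genes out of 18193 genes measured. They comprised 9 Hoxa, 9 Hoxb, 7 Hoxc and 8 Hoxd genes, and 22 of the 33 rested on a single probe set. The glands came from RonTK-/- mice, in which the tyrosine kinase domain of the receptor Ron is deleted, and from wild-type RonTK+/+ mice, at 5, 6 or 7 weeks of age. Each of the 6 groups of genotype and age held 3 arrays. The labels name no further allele or treatment, and they state neither the position of the glands nor whether the 3 arrays of a group came from separate animals, so p-values measure the spread between these arrays, which may be technical. The values are the authors' ratios, given below as log2, and for 44 of the 48 probe sets the median over the 9 RonTK+/+ arrays was 1. A log2 ratio of 0 thus stands for the middle RonTK+/+ array of that probe set, and the level of a gene cannot be set against that of another gene.

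The genes of a Hox cluster carry paralogue numbers that follow their order on the chromosome. Low numbers lie at the 3′ end of the cluster and are switched on early and far forward in the embryo, high numbers lie at the 5′ end and act further back. Fibroblasts, muscle and fat of the adult keep much of this positional pattern. Mouse mammary glands lie in pairs along the flank from the neck to the groin, with the thoracic glands beside the chest muscles and the inguinal glands around a lymph node, and Hoxc6, Hoxa9, Hoxb9 and Hoxd9 are known for roles in the developing gland.

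Skeletal muscle transcripts divided the arrays in 2. Averaged over 24 genes of skeletal muscle, the log2 ratio ran from -5.51 to -3.59 in 8 arrays and from 0.01 to 0.61 in the other 10, with no array between. The 8 arrays low in muscle were RonTK+/+ array 2 at 5 weeks, arrays 2 and 3 at 6 weeks and array 2 at 7 weeks, together with array 3 at 5 weeks and all 3 arrays at 6 weeks from RonTK-/- glands. They made up 4 of the 9 arrays of each genotype. All 24 muscle genes lay lower in each of these 8 arrays than in any of the others, against 4.90% of all genes. This follows largely from the division, which the mean of these same genes set. Genes such as Acta1, Myh4 and Neb reached the lowest ratio in the data, 0.01. The arrays were set apart here by a measured value and not by a label, so Hox values on the 2 sides are described below without a test. The SD of the log2 ratios over all probe sets ran from 0.13 to 0.45 between arrays, and the number of arrays limits the precision.

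Where muscle transcripts were low, Hoxa9, Hoxa10, Hoxc9 and Hoxc10 were high, and Hoxa5, Hoxc4, Hoxd8 and Hoxd9 were low, while the other members overlapped. Between the 8 arrays low in muscle and the other 10, 8 of the 33 Hox genes (24.2%) had ranges that did not overlap, against 7.66% of all genes. Of the 33, 4 lay above, where 2.76% of all genes did, and 4 lay below, where 4.90% of all genes did. RonTK+/+ had 4 arrays on the low side and 5 on the other. For such genes, the median that sets 0 therefore falls at the edge of the 5. By construction, the array of these 5 with the value nearest to the low-muscle arrays thus lies close to 0. The 8 arrays are not held there, and their Hoxc10 values start at 3.04.

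**Figure D1:**
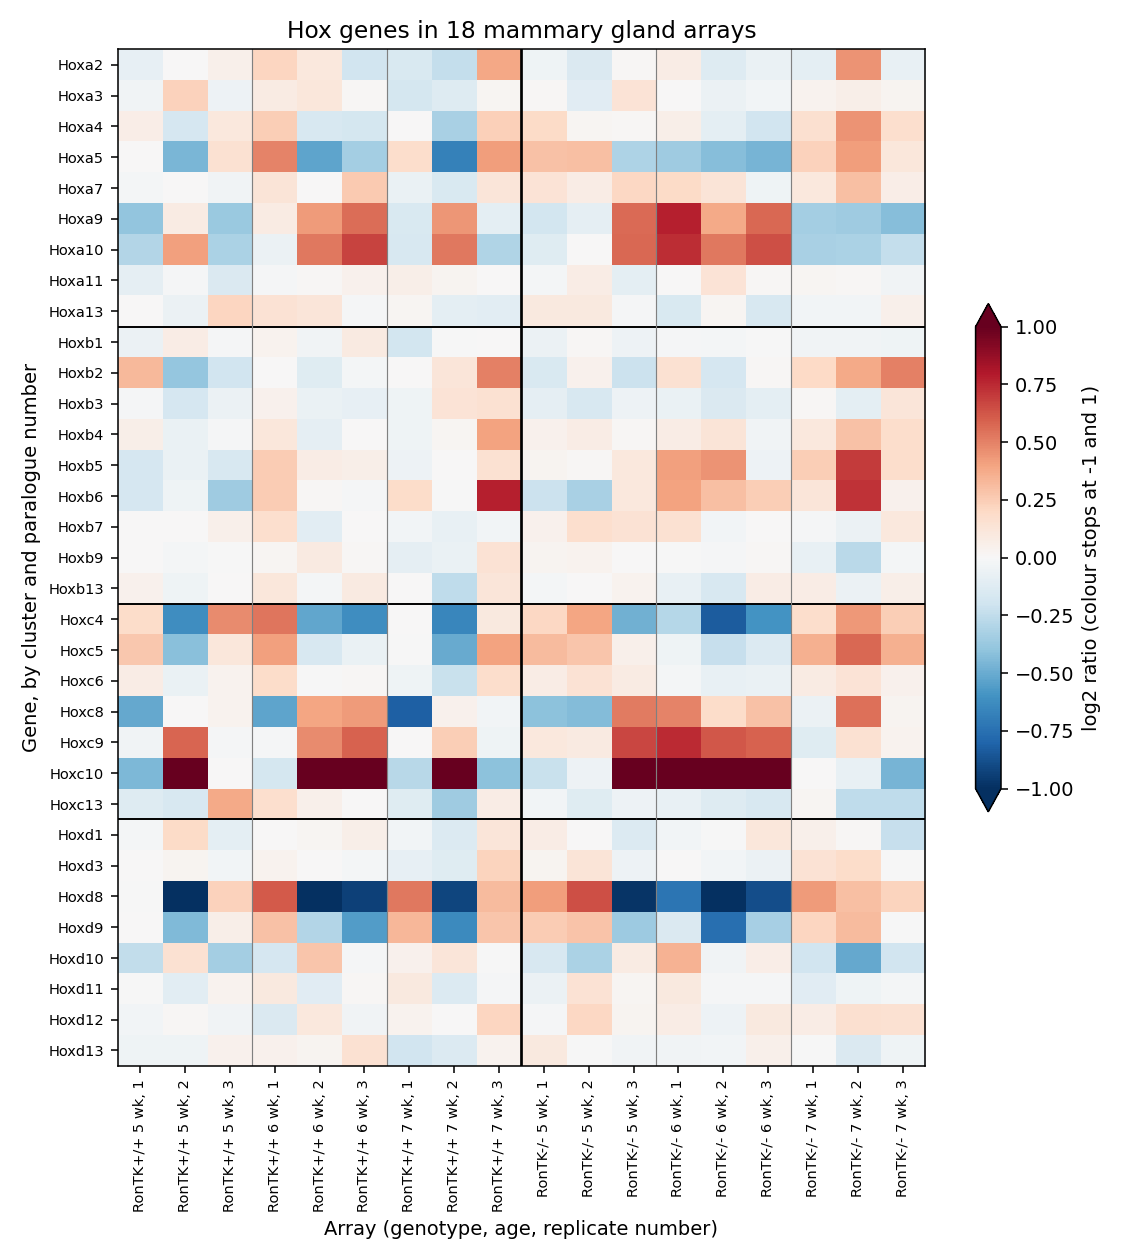
Log2 ratio of each of the 33 Hox genes (rows, by cluster and paralogue number) in the 18 arrays (columns, by genotype, age and replicate number); the colour scale stops at -1 and 1, and Hoxc10 reaches 4.03. Hoxc10, Hoxa10, Hoxa9 and Hoxc9 are red in the same 8 columns in which Hoxc4, Hoxa5, Hoxd8 and Hoxd9 are blue.

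The base sequences upstream of 4 of these genes are shown because they belong to opposite sides of the pattern, Hoxa10 higher and Hoxa5, Hoxc4 and Hoxd8 lower in the 8 arrays. They come from RefSeq (GRCm38.p6) and span 250 bases before to 50 after a transcription start, 5′ to 3′. Capitals mark TAAT, the core that homeodomains bind, on either strand (TAAT or ATTA). Hoxa10 has 2 starts in the table, and the one with the lower coordinate is shown.
Hoxa10, chr6:52234890-52235189, minus strand: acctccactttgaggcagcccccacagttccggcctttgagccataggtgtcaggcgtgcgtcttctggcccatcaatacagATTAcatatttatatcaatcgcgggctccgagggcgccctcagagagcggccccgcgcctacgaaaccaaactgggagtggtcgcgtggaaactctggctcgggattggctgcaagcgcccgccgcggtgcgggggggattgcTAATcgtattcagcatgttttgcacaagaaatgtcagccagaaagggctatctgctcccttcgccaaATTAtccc
Hoxa5, chr6:52204538-52204837, minus strand: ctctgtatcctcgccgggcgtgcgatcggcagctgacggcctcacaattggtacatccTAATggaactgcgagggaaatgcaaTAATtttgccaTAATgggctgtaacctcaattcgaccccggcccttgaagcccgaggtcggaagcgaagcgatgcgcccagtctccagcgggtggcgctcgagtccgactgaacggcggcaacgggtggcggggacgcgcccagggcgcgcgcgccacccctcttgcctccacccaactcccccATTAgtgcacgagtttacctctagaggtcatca
Hoxc4, chr15:103034145-103034444, plus strand: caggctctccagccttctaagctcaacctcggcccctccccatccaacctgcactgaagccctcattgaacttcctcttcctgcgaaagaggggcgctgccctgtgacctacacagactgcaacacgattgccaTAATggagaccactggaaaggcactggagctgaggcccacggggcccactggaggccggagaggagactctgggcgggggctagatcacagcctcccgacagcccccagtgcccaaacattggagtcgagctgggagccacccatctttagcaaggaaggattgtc
Hoxd8, chr2:74704365-74704664, plus strand: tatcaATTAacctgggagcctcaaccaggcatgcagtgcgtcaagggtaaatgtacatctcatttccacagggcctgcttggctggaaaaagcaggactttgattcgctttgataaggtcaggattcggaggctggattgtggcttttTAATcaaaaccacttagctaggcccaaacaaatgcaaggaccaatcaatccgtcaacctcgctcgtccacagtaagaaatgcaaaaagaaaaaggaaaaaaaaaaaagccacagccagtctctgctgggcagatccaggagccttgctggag

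The core stood 3 times in the Hoxa10 sequence, 4 times in that of Hoxa5, 1 time in that of Hoxc4 and 2 times in that of Hoxd8. At the other Hoxa10 start (chr6:52240805-52241104, minus strand) it stood 1 time, among 12 CpG pairs. The table held 21 promoters for 19 of the 33 Hox genes, and 17 of these (81.0%) carried the core at least 1 time, against 58.0% of 32851 promoters of the same length. CpG pairs numbered 21, 29, 9 and 6 in the 4 printed sequences, and the median was 15 over the Hox promoters and 7 over all. The matches describe letters in these windows and show no binding.

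Hoxc10, a posterior gene known from the hindlimb and lumbar region, took only 2 levels. With arrays 1, 2 and 3 of each group in turn, its log2 ratios were -0.45, 3.19 and 0.01 in the 5-week, -0.18, 3.65 and 4.03 in the 6-week, and -0.27, 3.04 and -0.41 in the 7-week RonTK+/+ arrays. They were -0.23, -0.05 and 3.73 in the 5-week, 3.83, 3.06 and 3.16 in the 6-week, and 0.00, -0.07 and -0.46 in the 7-week RonTK-/- arrays. The 8 arrays above 3 were the 8 low in muscle, and no array lay between 0.01 and 3.04. On the linear scale its ratio was 8.2 to 16.3 in the 8 arrays and 0.727 to 1.00 in the other 10. The middle RonTK+/+ array stood at a Hoxc10 ratio of 1.0036 and not 1, so these ratios are not exact multiples of that median. The lowest of the 8 was 8.17-fold above the highest of the 10. Only 0.682% of all genes had a wider range over the 18 arrays than the 4.49 of Hoxc10. It was measured by a single probe set.

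Hoxa10, its paralogue in the Hoxa cluster and a gene of the lumbar region and the uterus, followed the same arrays over a smaller range. Its log2 ratios were -0.29, 0.41 and -0.31 in the 5-week, -0.06, 0.52 and 0.68 in the 6-week, and -0.16, 0.53 and -0.30 in the 7-week RonTK+/+ arrays. It read -0.12, 0.00 and 0.58 in the 5-week, 0.74, 0.53 and 0.65 in the 6-week, and -0.33, -0.31 and -0.24 in the 7-week RonTK-/- arrays. The 8 arrays high in Hoxc10 lay between 0.41 and 0.74 and the other 10 between -0.33 and 0.00. Both Hoxa10 probe sets divided the arrays, from 0.27 to 0.86 against -0.65 to 0.00 in the first and from 0.24 to 0.62 against -0.19 to 0.12 in the second.

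Paralogues numbered 9 differed from cluster to cluster. Hoxc9, a gene of the lower chest and lumbar region, ran from 0.25 to 0.75 in the 8 arrays low in muscle and from -0.12 to 0.15 in the other 10. Hoxa9, which acts with Hoxb9 and Hoxd9 in mammary growth, read -0.39, 0.08 and -0.37 in the 5-week, 0.08, 0.43 and 0.56 in the 6-week, and -0.15, 0.44 and -0.10 in the 7-week RonTK+/+ arrays. It read -0.18, -0.09 and 0.57 in the 5-week, 0.78, 0.38 and 0.57 in the 6-week, and -0.34, -0.36 and -0.42 in the 7-week RonTK-/- arrays. Its ranges, 0.08 to 0.78 against -0.42 to 0.08, were apart by only 0.0052. Its probe sets differed, since the first overlapped (-0.10 to 0.20 against -0.29 to 0.16) and the second did not (0.27 to 1.36 against -0.71 to 0.00).

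Hoxd9 went the other way, being low where Hoxc10 was high. It read 0.00, -0.44 and 0.06 in the 5-week, 0.29, -0.30 and -0.56 in the 6-week, and 0.33, -0.64 and 0.28 in the 7-week RonTK+/+ arrays. Its log2 ratios were 0.26, 0.28 and -0.36 in the 5-week, -0.14, -0.75 and -0.33 in the 6-week, and 0.22, 0.31 and 0.00 in the 7-week RonTK-/- arrays. The 8 arrays lay between -0.75 and -0.14 and the other 10 between 0.00 and 0.33. Hoxb9 stayed between -0.27 and 0.15 in all 18. Hoxd10, a gene of the lumbar cord and hindlimb, ran from -0.04 to 0.35 against -0.51 to 0.04, so its ranges overlapped.

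Hoxc4 and Hoxa5, from the anterior part of their clusters, were low where Hoxc10 was high. Hoxc4, a gene of the neck and upper chest, had log2 ratios of 0.19, -0.62 and 0.47 in the 5-week, 0.53, -0.52 and -0.62 in the 6-week, and 0.00, -0.65 and 0.10 in the 7-week RonTK+/+ arrays. It had 0.21, 0.40 and -0.48 in the 5-week, -0.28, -0.83 and -0.60 in the 6-week, and 0.18, 0.43 and 0.25 in the 7-week RonTK-/- arrays. The 8 arrays low in muscle lay between -0.83 and -0.28 and the other 10 between 0.00 and 0.53. Hoxa5, which patterns the neck and chest and the lung, had log2 ratios of 0.00, -0.45 and 0.15 in the 5-week, 0.49, -0.53 and -0.34 in the 6-week, and 0.18, -0.67 and 0.41 in the 7-week RonTK+/+ arrays. It had 0.29, 0.30 and -0.31 in the 5-week, -0.36, -0.43 and -0.46 in the 6-week, and 0.23, 0.42 and 0.11 in the 7-week RonTK-/- arrays. Hoxa5 again showed 2 levels, -0.67 to -0.31 in the 8 arrays and 0.00 to 0.49 in the other 10, and both of its probe sets divided the arrays.

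Taken as means over their probe sets, the neighbours of Hoxc4 and Hoxa5 in the clusters showed less. Hoxc5, next to Hoxc4, read 0.27, -0.42 and 0.11 in the 5-week, 0.41, -0.16 and -0.07 in the 6-week, and -0.01, -0.50 and 0.40 in the 7-week RonTK+/+ arrays. It read 0.32, 0.28 and 0.05 in the 5-week, -0.04, -0.23 and -0.13 in the 6-week, and 0.35, 0.58 and 0.36 in the 7-week RonTK-/- arrays. Hoxc5 ran from -0.50 to 0.05 in the 8 arrays low in muscle and from -0.01 to 0.58 in the other 10, and 1 of its 3 probe sets divided the arrays. Hoxa4 ran from -0.32 to 0.06 against 0.00 to 0.45, and Hoxc6 from -0.22 to 0.08 against -0.05 to 0.18. All 3 overlapped.

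Hoxd8, a central gene of the Hoxd cluster, had the widest range after Hoxc10, at 1.90. Its log2 ratios were 0.00, -1.26 and 0.23 in the 5-week, 0.61, -1.02 and -0.93 in the 6-week, and 0.53, -0.92 and 0.32 in the 7-week RonTK+/+ arrays. They were 0.42, 0.65 and -0.98 in the 5-week, -0.73, -1.23 and -0.88 in the 6-week, and 0.42, 0.30 and 0.22 in the 7-week RonTK-/- arrays. The 8 arrays high in Hoxc10 were the 8 low in Hoxd8, at 0.419 to 0.601 times the RonTK+/+ median on the linear scale against 1.00 to 1.56 times in the other 10. Both Hoxd8 probe sets divided the arrays.

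Hoxc8, the paralogue of Hoxd8 in the Hoxc cluster and a gene of the mid-trunk, had a range of 1.37 and overlapped between the sides. It read -0.51, 0.00 and 0.03 in the 5-week, -0.53, 0.39 and 0.42 in the 6-week, and -0.81, 0.04 and -0.03 in the 7-week RonTK+/+ arrays. Its log2 ratios were -0.41, -0.44 and 0.52 in the 5-week, 0.49, 0.18 and 0.29 in the 6-week, and -0.06, 0.55 and 0.03 in the 7-week RonTK-/- arrays. It ran from 0.00 to 0.52 in the 8 arrays (median 0.34) and from -0.81 to 0.55 in the other 10 (median -0.23). Its highest value lay in RonTK-/- array 2 at 7 weeks (0.55) and its lowest in RonTK+/+ array 1 at 7 weeks (-0.81).

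**Figure D2:**
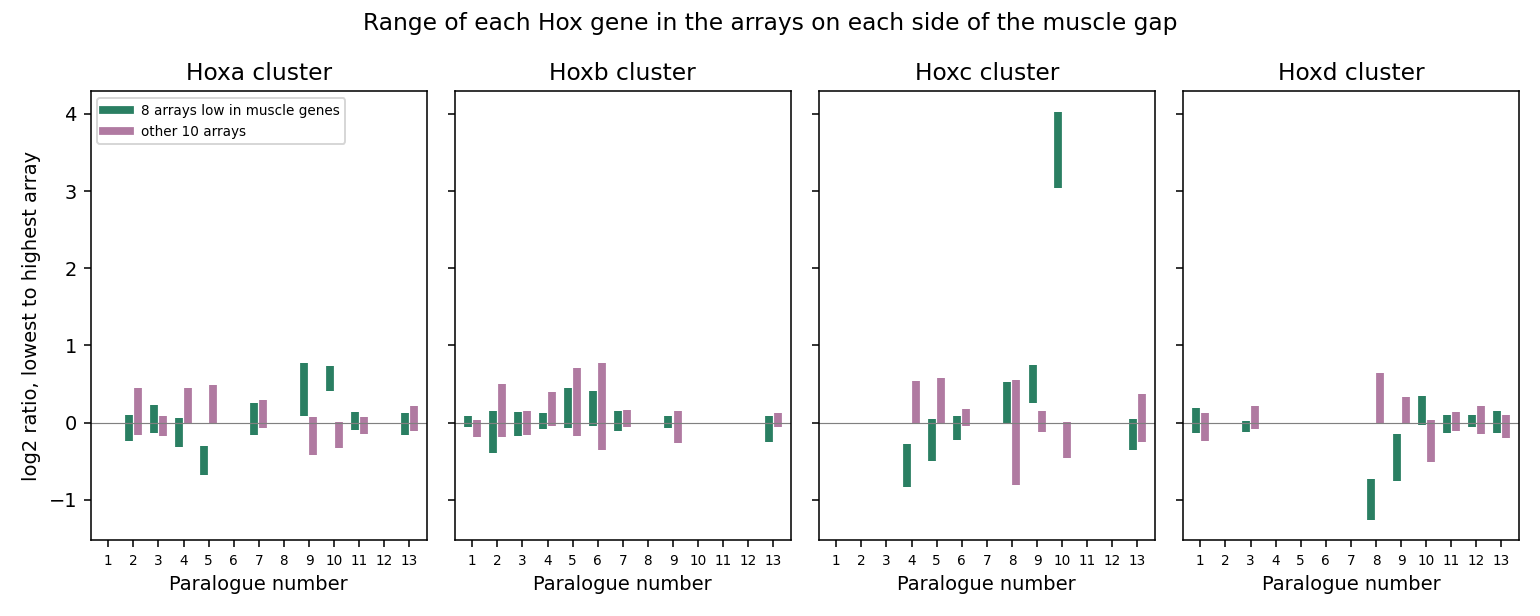
Lowest to highest log2 ratio (vertical axis) of each Hox gene by paralogue number (horizontal axis) in the 4 clusters, with the 8 arrays low in skeletal muscle genes in green and the other 10 in purple. Green bars lie above purple ones at Hoxa9, Hoxa10, Hoxc9 and Hoxc10 and below at Hoxa5, Hoxc4, Hoxd8 and Hoxd9, and the Hoxb cluster shows no separated pair.

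The 9 genes of the Hoxb cluster lay between -0.39 and 0.78, and 0 of the 9 had ranges that did not overlap, near the 7.66% of all genes. Hoxb6, a trunk gene, varied most of them. Hoxb6 read -0.17, -0.04 and -0.36 in the 5-week, 0.25, 0.01 and -0.01 in the 6-week, and 0.18, 0.00 and 0.78 in the 7-week RonTK+/+ arrays. It read -0.22, -0.33 and 0.11 in the 5-week, 0.40, 0.30 and 0.25 in the 6-week, and 0.12, 0.72 and 0.04 in the 7-week RonTK-/- arrays. The highest values were those of array 3 of RonTK+/+ and array 2 of RonTK-/- at 7 weeks, on the side rich in muscle, which also held the lowest. Hoxb5 was likewise highest in RonTK-/- array 2 at 7 weeks (0.70), the array with the widest SD over all probe sets (0.45). The 7 genes of paralogue numbers 1 to 3 stayed between -0.39 and 0.51, and the 7 of numbers 11 to 13 between -0.35 and 0.38. At each end 0 of 7 had ranges that did not overlap, again near the 7.66% of all genes. In all, 25 of the 33 Hox genes overlapped between the 8 arrays and the others, over ranges of 0.27 to 1.37. Because only ratios are known, a small range in these genes cannot be told apart from a signal near background.

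Lymphocyte transcripts were high in the arrays low in muscle and in 2 of the others. In the 8 arrays low in muscle, the mean of 13 B lymphocyte genes ran from 0.05 to 0.80 and that of 13 T lymphocyte genes from 0.05 to 0.93. In 8 of the other 10, the B lymphocyte mean was -1.76 or lower and the T lymphocyte mean -2.28 or lower. The first array of each genotype at 5 weeks was rich in both kinds of transcript (RonTK+/+ then RonTK-/-), with muscle means of 0.01 and 0.48, B lymphocyte means of 0.09 and -0.31 and T lymphocyte means of 0.25 and -0.43. Their Hoxc10 values were -0.45 and -0.23, their Hoxa10 values -0.29 and -0.12, their Hoxc4 values 0.19 and 0.21 and their Hoxd8 values 0.00 and 0.42. Since these 2 arrays are among the 10, their side in these 4 genes follows from the counts above and is no further result. Within the 8 arrays, Hoxc10 was highest in the 2 whose muscle means were least low, RonTK+/+ array 3 (4.03 at a muscle mean of -3.86) and RonTK-/- array 1 (3.83 at -3.59) at 6 weeks. In whole glands, fewer cells of a type and less RNA per cell cannot be told apart, and the part of muscle or lymph node tissue in the Hox values was not tested.

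**Figure D3:**
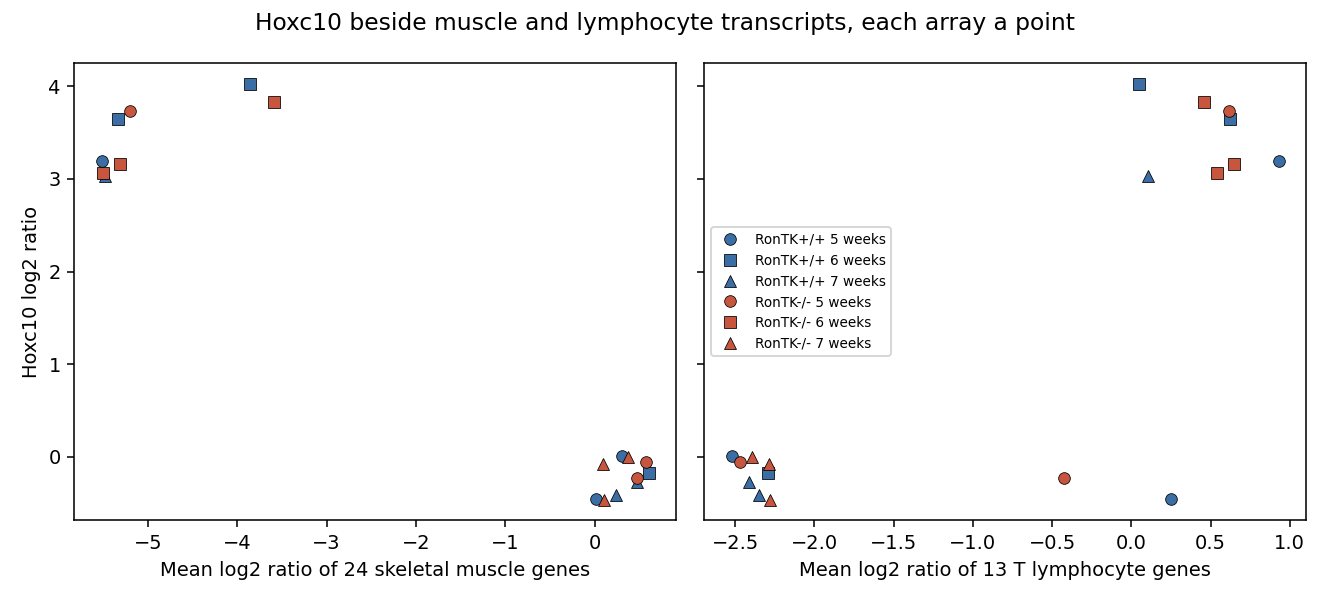
Hoxc10 log2 ratio (vertical axis) against the muscle mean over 24 genes (left) and the mean over 13 T lymphocyte genes (right), both as log2 ratio, each array a point, coloured by genotype and shaped by age. Left, 8 arrays stand above 3 at muscle means of -3.59 or lower; right, the 2 low points near -0.43 and 0.25 are the first 5-week arrays of RonTK-/- and RonTK+/+.

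Means over genes of other tissues overlapped between the sides. Luminal epithelial genes (12 measured) ran from -0.74 to 0.29 in the 8 arrays and from -0.02 to 0.51 in the other 10, and 9 fibroblast genes from -0.26 to 0.06 against -0.33 to 0.24. Brown adipocyte genes (8 measured) ran from -1.45 to 0.12 against 0.03 to 0.75, and 2 of the 8 (25.0%, against 7.66% of all genes), Cox7a1 and Ppargc1a, did not overlap and lay below. Which cells of the whole gland these 2 transcripts came from was not measured, and the sides were set by muscle genes. The part of brown adipocyte genes in the Hox values was not tested. Basal epithelial genes (8 measured) ran from -0.54 to 0.38 against -0.08 to 0.65, and white adipocyte genes (7 measured) from -0.23 to 0.34 against -0.56 to 0.44. Hoxc13, known for its part in hair growth, was highest in the third RonTK+/+ array at 5 weeks (0.38) and the first at 6 weeks (0.17). In both arrays the mean of 12 epidermis and hair genes was 1.48. It was 2.74 in RonTK-/- array 1 at 6 weeks, where Hoxc13 was at -0.08.

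Loss of the Ron kinase domain was compared with RonTK+/+ over the 3 ages, at each age, and as an interaction of genotype with age. No Hox gene passed in any of these 5 comparisons (limma, Benjamini-Hochberg over all genes, adjusted p under 0.05). Over the 3 ages 0 of 33 passed, against 0.0605% of all genes, and 1 of 33 had an unadjusted p under 0.05, against 3.77% of all genes. That gene was Hoxb5, a trunk gene of the Hoxb cluster, at 0.22 ± 0.08 (SE, n = 9 against 9, limma adjusted p = 1.00). Hoxc10 differed by 0.04 ± 0.77, Hoxa10 by 0.05 ± 0.15, Hoxc4 by 0.04 ± 0.20 and Hoxa5 by 0.06 ± 0.17. The median difference of the 33 was 0.04, beside 0.00 over all genes, and 23 of them lay above 0.

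At single ages the Hoxc10 difference had an SE of 1.33. Its group means ran from -0.18 ± 0.25 to 3.35 ± 0.42 (SD, n = 3) in RonTK-/- and from 0.78 ± 1.95 to 2.50 ± 2.33 in RonTK+/+ glands. At 5 weeks 0 of 33 Hox genes passed (0.0110% of all genes) and 0 had an unadjusted p under 0.05 (3.42%). At 6 weeks 0 passed (0.0165% of all genes), with Hoxa13, at -0.18 ± 0.08, alone at an unadjusted p under 0.05 (6.15%). At 7 weeks 0 passed (0.0330% of all genes), with Hoxb5 (0.34 ± 0.14), Hoxc5 (0.46 ± 0.22) and Hoxd10 (-0.35 ± 0.15) at an unadjusted p under 0.05 (9.75% of all genes), where limma adjusted p was 0.463, 0.511 and 0.486. The interaction was passed by 0 of 33 and by 0 of 18193 genes, with 1 Hox gene, Hoxa9, at an unadjusted p under 0.05 (6.82%).

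Genotypes could be compared more narrowly among arrays of like muscle content. Among the 8 arrays low in muscle, Hoxc10 was 3.44 ± 0.39 in RonTK-/- and 3.48 ± 0.45 in RonTK+/+ arrays (mean ± SD, n = 4 each), a difference of -0.03 ± 0.25 (SE). Among the other 10 it was -0.16 ± 0.19 and -0.26 ± 0.19 (n = 5 each), a difference of 0.10 ± 0.11. Hoxa10 differed by 0.09 ± 0.07 and 0.03 ± 0.08, Hoxc4 by 0.06 ± 0.11 and 0.04 ± 0.11, Hoxa5 by 0.11 ± 0.08 and 0.03 ± 0.10, and Hoxd8 by 0.08 ± 0.12 and 0.07 ± 0.12, low-muscle arrays first. In both sets 0 of 33 Hox genes passed, against 0.0220% and 0.0385% of all genes. At an unadjusted p under 0.05 there was 1 of 33 among the arrays low in muscle (4.38% of all genes) and 0 of 33 among the others (2.22%). That gene was Hoxb6, at 0.28 ± 0.07 (limma adjusted p = 0.924) among the arrays low in muscle and -0.07 ± 0.24 among the others. These fits pool the ages, and the ages differed between the genotypes on each side. At 5, 6 and 7 weeks, 1, 2 and 1 RonTK+/+ arrays were low in muscle, against 1, 3 and 0 RonTK-/- arrays. RonTK-/- thus had no 7-week array on the low side and no 6-week array on the other. Genotype and age are partly mixed in these fits, and the sides were set by a measured value.

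**Figure D4:**
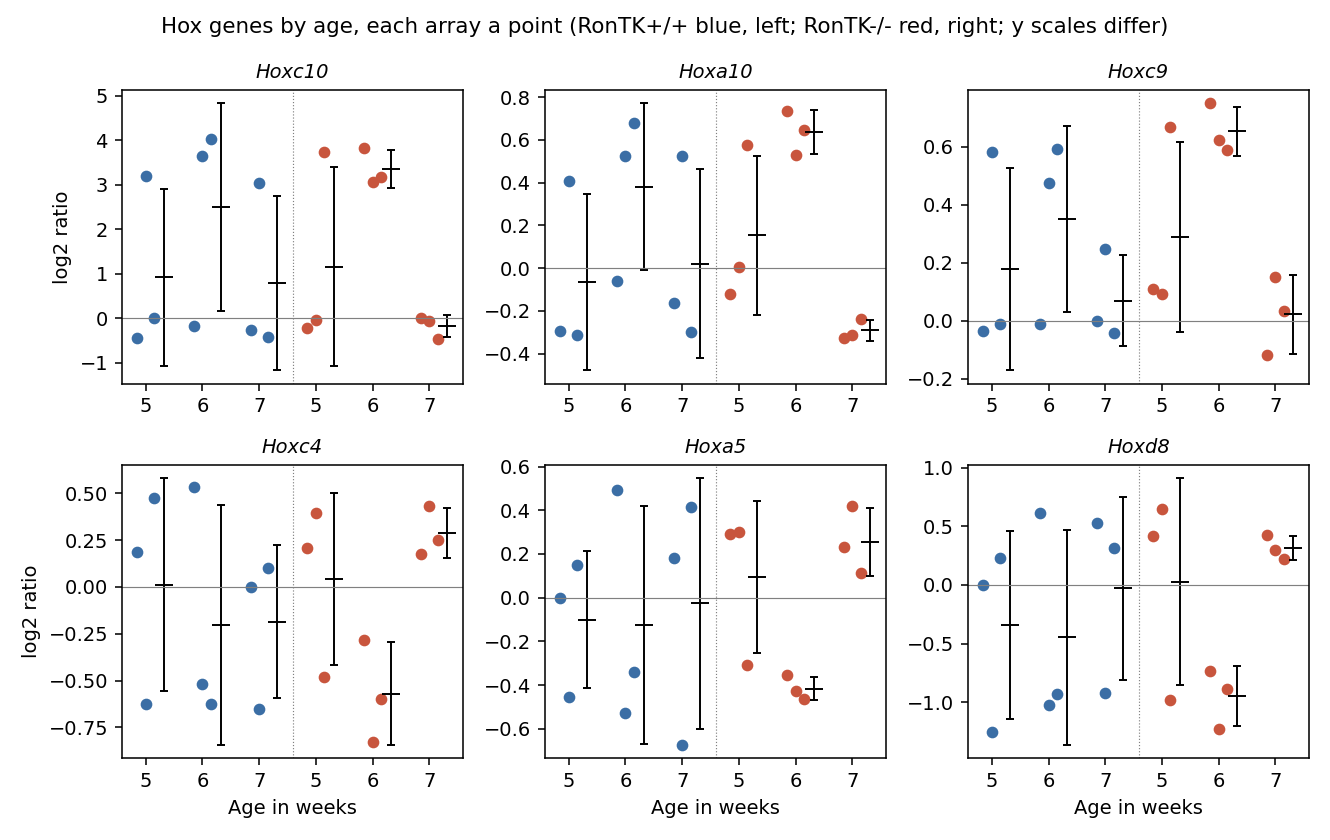
Log2 ratio (vertical axis, scales differ) of 6 Hox genes by age in weeks (horizontal axis), RonTK+/+ left in blue and RonTK-/- right in red, each array a point, with the mean and SD of the 3 arrays in black. Every group but RonTK-/- at 6 and 7 weeks holds arrays of both Hoxc10 levels.

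Change with age was compared within each genotype. In RonTK+/+ glands 0 of 33 Hox genes passed over the 3 ages (0.104% of all genes), with Hoxa9 alone at an unadjusted p under 0.05 (8.92%). Between 6 and 7 weeks 0 passed (0.0110%), with Hoxd13, at -0.17 ± 0.07, alone at an unadjusted p under 0.05 (9.15%). In RonTK-/- glands 0 of 33 passed over the 3 ages (0.0385% of all genes), and 5, namely Hoxa9, Hoxa10, Hoxb2, Hoxc9 and Hoxd10, had an unadjusted p under 0.05 (17.5% of all genes). With array weights, which give arrays of larger residuals less influence, limma called Hoxa9 over the ages in RonTK+/+ (592 genes in all), 11 Hox genes over the ages in RonTK-/- (5356) and Hoxd13 between 6 and 7 weeks in RonTK+/+ (1146).

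Hox values of RonTK-/- glands at 6 and at 7 weeks lay apart in many members, and all 3 arrays at 6 weeks were low in muscle and none at 7 weeks was. Hoxc10 was 3.35 ± 0.42 at 6 weeks and -0.18 ± 0.25 at 7 weeks (mean ± SD, n = 3 each), a difference of -3.53 ± 1.33 (SE, limma adjusted p = 0.170) with the spread shared by all 18 arrays. Hoxa10 differed by -0.93 ± 0.26 (adjusted p = 0.141), Hoxc4 by 0.86 ± 0.34 (adjusted p = 0.180), Hoxa5 by 0.67 ± 0.29 (adjusted p = 0.199) and Hoxd8 by 1.26 ± 0.53 (adjusted p = 0.190). None of the 33 passed, as did none of all genes, and 11 had an unadjusted p under 0.05, against 22.6% of all genes. The arrays of the 2 ages did not overlap in 17 of the 33 Hox genes, 9 higher and 8 lower at 7 weeks, against 38.3% of all genes. In a fit of these 6 arrays alone 8 of 33 passed, against 16.5% of all genes. Hoxa9, Hoxa10, Hoxc9 and Hoxc10 fell and Hoxa5, Hoxc4, Hoxc5 and Hoxd8 rose, with Hoxc10 lower by 11.5-fold (limma adjusted p = 7.88e-05). With array weights 9 of 33 passed among 3711 genes. Muscle content and age cannot be told apart between these groups. The comparison was chosen knowing that they lay on opposite sides in muscle transcripts, so its calls give no separate support to that division. With the muscle mean of each array as a covariate in the fit of all 18 arrays, the differences were -0.48 ± 0.54 for Hoxc10, -0.36 ± 0.12 for Hoxa10, 0.08 ± 0.15 for Hoxc4, 0.01 ± 0.13 for Hoxa5 and -0.0073 ± 0.13 for Hoxd8. With this covariate 0 of 33 passed here, as did 0 of all genes. In the other comparisons 0 of 33 passed too, against 0.0824% of all genes for genotype over ages, 0.0330%, 0.0165% and 0.0385% at 5, 6 and 7 weeks, 0 for the interaction, 1.09% and 0.0715% over the ages in RonTK+/+ and RonTK-/- and 0.308% between 6 and 7 weeks in RonTK+/+.

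Genes that act in limb and trunk position beside the Hox clusters also differed between arrays. Of 28 such genes measured, 6 did not overlap between the 8 arrays low in muscle and the other 10 (21.4%, against 7.66% of all genes), 1 above and 5 below (2.76% and 4.90% of all genes). Shox2, a homeobox gene of the proximal limb, was the one above, from 0.09 to 0.55 against -0.34 to 0.03. Isl1, a LIM homeobox gene, had the widest range of the list and lay between -2.10 and -1.01 against 0.07 and 0.78. Tbx15, a T-box gene of the trunk and limb skeleton and of fat, lay between -1.40 and -1.08 against -0.06 and 1.02. Zic1, a zinc finger gene of the dorsal trunk, stayed between -0.15 and 0.00 in the 8 arrays and reached 2.72 in RonTK-/- array 2 at 7 weeks. Fgf10, a growth factor of limb and mammary buds, ran from -0.15 to 0.45 against -1.29 to 0.63. In the 9 comparisons 0 of the 28 passed.

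Among Hox cofactors, which bind DNA beside Hox proteins, 2 of 8 did not overlap (25.0%, against 7.66% of all genes). Pknox2 lay between -0.59 and -0.42 in the 8 arrays and between -0.15 and 0.54 in the other 10, while Pbx2 lay between 0.05 and 0.33 against -0.36 and 0.01. Pbx3 ran from -0.16 to 0.40 against -0.64 to 0.18 and Pknox1 from 0.02 to 0.21 against -0.56 to 0.05. Of 35 upstream regulators, which include the retinoic acid pathway and the Polycomb and Trithorax groups, 3 did not overlap (8.57%, against 7.66% of all genes). Aldh1a1, an enzyme that makes retinoic acid, lay between -2.18 and -0.56 against 0.00 and 1.16. The demethylase gene Kdm6a and the Polycomb gene Suz12 were the 2 that lay above, from 0.10 to 0.41 against -0.43 to 0.07 and from 0.00 to 0.23 against -0.39 to 0.00. Rarb, a retinoic acid receptor gene, ran from -0.86 to 0.00 against 0.00 to 0.91 and Rxrg, a partner receptor gene, from -0.61 to 0.09 against -0.14 to 0.71. Gmnn, a replication inhibitor gene, ran from -0.34 to 0.76 against -0.62 to 0.59. In the 9 comparisons 0 of these 8 cofactors and 0 of these 35 regulators passed.

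Genes next to the clusters were described in the same way. On each side of each cluster the 2 nearest measured genes were taken in RefSeq order, leaving out the Evx genes and unnamed models, 16 in all, and 0 of the 16 had ranges that did not overlap, which is near the 7.66% of all genes. Skap1, an adaptor gene of T lymphocytes beside the Hoxb cluster, had the widest range, from 0.07 to 1.18 in the 8 arrays (median 0.69) and from -2.22 to 0.08 in the other 10 (median -1.91). Lnpk, beside the Hoxd cluster, ran from -0.53 to -0.22 (median -0.35) against -0.35 to 0.95 (median 0.54). All 15 neighbours other than Skap1 lay between -0.53 and 0.95.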

How the data were processed

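RNA of whole mammary glands, spun to remove fat, was amplified for 1 round, labelled with biotin and hybridised to 18 Affymetrix mouse arrays, per the labels' protocols. The deposited values are taken to be linear ratios, from the values themselves: the median over an array is 1, and in 87.4% of 45101 probe sets the 9 RonTK+/+ arrays have their median at 1 (tolerance 1e-04). Background correction and scaling by the authors: not given in the sources used here. Signal over background is unknown, so dim probe sets were kept. No pseudocount was added. A gene's value is the mean log2 ratio of its probe sets with 1 symbol in the platform annotation (34945 of 45101 probe sets, 932 with several symbols, 9160 with none or not listed and 64 controls). By Entrez gene, 34741 probe sets matched RefSeq (GRCm38.p6), used for names and gene order because the files name no build, and 0 symbols changed.

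limma 3.58.1 (R 4.3.3) fitted 1 mean per group to all 18 arrays and 18193 genes (lmFit, eBayes, 12 residual and 1.94 prior degrees of freedom), with two-sided p-values, Benjamini-Hochberg adjustment across the 18193 genes and calls at an adjusted p under 0.05. Figures used matplotlib 3.10.9. On simulated data for 18193 genes without correlation, the fit recovered 98% of genes changed 2-fold for genotype over ages and 86% between 6 and 7 weeks in RonTK-/-. The changed genes were drawn at random from all genes. These shares therefore do not hold for Hox genes of wide spread within groups, such as Hoxc10, whose SE is given above. The widest gap between the arrays' ordered muscle means divides them into 8 and 10. Genes named in full were Hoxc10, Hoxa10, Hoxc4, Hoxa5 and the 10 members of widest range, and from other lists up to 4 of widest range; other Hox genes given with single values, and Shox2, Kdm6a and Suz12, were named after their values were seen. The members, the lists and the comparison of 7 with 6 weeks in RonTK-/- were chosen with earlier results of these data known. Alternatives were quantile normalization, median centring, a pseudocount of 0.1, weights for arrays, replicate number as a block, other array sets, single probe sets, a muscle covariate, other thresholds and leaving out arrays.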

Additional observations from a re-analysis of the deposited data

How the results depend on the processing

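The count of Hox genes passing was 0 in all 9 comparisons, and it was also 0 in each of them after quantile normalization, median centring, a pseudocount of 0.1, single probe sets, the muscle covariate and an adjusted p under 0.1, and in each of the 18 fits that left out 1 array (lowest 0, highest 0). Without the 2 arrays that held both muscle and lymphocyte transcripts, a choice made after seeing the data, it was 0 too. Array weights (limma, gene by gene, since the default method did not converge) raised the calls among all 18193 genes as well. They gave 1 of 33 for age in RonTK+/+ (592 of all genes) and 11 for age in RonTK-/- (5356). For 7 minus 6 weeks they gave 1 in RonTK+/+ (1146) and 9 in RonTK-/- (3711). Only the arrays compared gave 8 of 33 for 7 minus 6 weeks in RonTK-/-, against 16.5% of all genes. The muscle covariate turned the Hoxd8 difference between 6 and 7 weeks in RonTK-/- to -0.0073; the cause was not tested.

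With the replicate number as a block the count was 0 in each comparison. Deviations of arrays with the same number correlated between -0.0027 and 0.73 for number 1 (median 0.26). They correlated between -0.83 and 0.87 for number 2 and between -0.76 and 0.63 for number 3. Of 18 arrays, 7 correlated best with an array of their own number. RonTK+/+ array 2 was low in muscle at each age and array 1 at none, so muscle content runs partly with the number. Whether the numbers pair the arrays cannot be decided from these correlations.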

Other observations

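Antisense transcripts of 3 Hox genes were measured. Hoxa11os ran from -0.11 to 0.16 over the 18 arrays, Hoxb5os from -0.23 to 0.22 and Hoxd3os1 from -0.46 to 0.19. Between the 8 arrays low in muscle and the other 10, 0 of the 3 had ranges that did not overlap, near the 7.66% of all genes. The array is not stated to separate strands of overlapping genes.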
